A study of Mus musculus with 6 samples.

Results

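The genes described here are 10 genes of growth arrest and DNA damage signalling: the transcription factor gene Trp53, its negative regulator Mdm2, the cyclin-dependent kinase inhibitor genes Cdkn1a and Cdkn1b, Gadd45a, Gadd45b and Gadd45g, and the p53 target genes Sesn1, Ccng1 and Btg2. Gene positions below are those of GENCODE M21 on GRCm38, and the build behind the deposited counts is not given in the sources used here. The genes were taken by symbol, and all 10 were found among the 55401 genes of the count table. RNA of BV2, a mouse microglial cell line immortalised with a retrovirus that carries v-raf and v-myc, was selected for poly(A) and sequenced in 3 libraries of cells given lipopolysaccharide (LPS), a bacterial cell wall molecule sensed by Toll-like receptors, and 3 libraries of cells given Vehicle. Dose and duration of the treatment are not in the labels. Nor is it stated that replicates are separate cultures, and the p-values therefore cover only the spread among the 6 libraries, which may be technical.

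The p53 protein, encoded by Trp53, binds DNA as a tetramer at paired copies of a short motif and switches on genes that stop the cell cycle, repair DNA or lead to cell death. Among its targets is Mdm2, whose product marks p53 for degradation, so that the pathway limits itself. The level of p53 protein is set mainly by that degradation and not by the level of Trp53 RNA. Several of these genes also answer to other signals, such as NF-kB, AP-1, stress kinases and growth factor withdrawal.

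Library totals ran from 45969690 to 59023474 estimated counts. LPS libraries had raised levels of the cytokine gene Tnf (10.5-fold), of Il1b (240-fold) and of the nitric oxide synthase gene Nos2 (204-fold), all 3 called by edgeR's quasi-likelihood test. Of 12 microglia and macrophage markers, all measured, 1 rose (Adgre1, 1.65-fold) and 3 fell (Csf1r, 0.375-fold, Tyrobp, 0.680-fold, and P2ry12, 0.145-fold). Of all genes tested 12.7% were called higher and 10.9% lower. The summed level of the 12 markers was 1847 to 2319 CPM (counts scaled to a common library total) in LPS libraries, against 2185 to 2472 CPM in Vehicle libraries. Cd68 made up much of that sum, with 808 to 1070 CPM in LPS libraries. Itgam was at 42.9 CPM in LPS 1, 186 and 249 CPM in LPS 2 and 3, and 156 to 222 CPM in Vehicle libraries. Tmem119 and P2ry12, markers of resting microglia, were low in both groups, and P2ry12 was at 0 in LPS 1. Of 18 markers of other cell types 9 passed the filter on low counts, none was called, and Cd3e, a T cell marker, was at 0 in every library. Their summed level was 4.22 CPM in LPS 1, 17.7 CPM in LPS 2 and 16.8 CPM in LPS 3, against 12.7 to 17.6 CPM in Vehicle libraries. Whether this bears on the results below was not tested.

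All 10 genes passed the filter on low counts. With LPS 5 of them rose (Gadd45a, Btg2, Cdkn1a, Gadd45b and Mdm2), 1 fell (Sesn1) and 4 did not pass the test (Trp53, Cdkn1b, Gadd45g and Ccng1). The test was edgeR's quasi-likelihood F-test with Benjamini-Hochberg adjustment over all 16371 genes tested, with an adjusted p under 0.05 as the threshold. Over all of these genes 23.6% were called, 12.7% higher and 10.9% lower. The median log2 fold change, LPS over Vehicle, was 0.28 for the 10 genes and -0.02 for all genes tested. A log2 fold change is given ± its standard error (SE), from 3 libraries per group. In bulk RNA, a change in the number of cells that express a gene and a change in RNA per cell cannot be told apart.

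**Figure D1:**
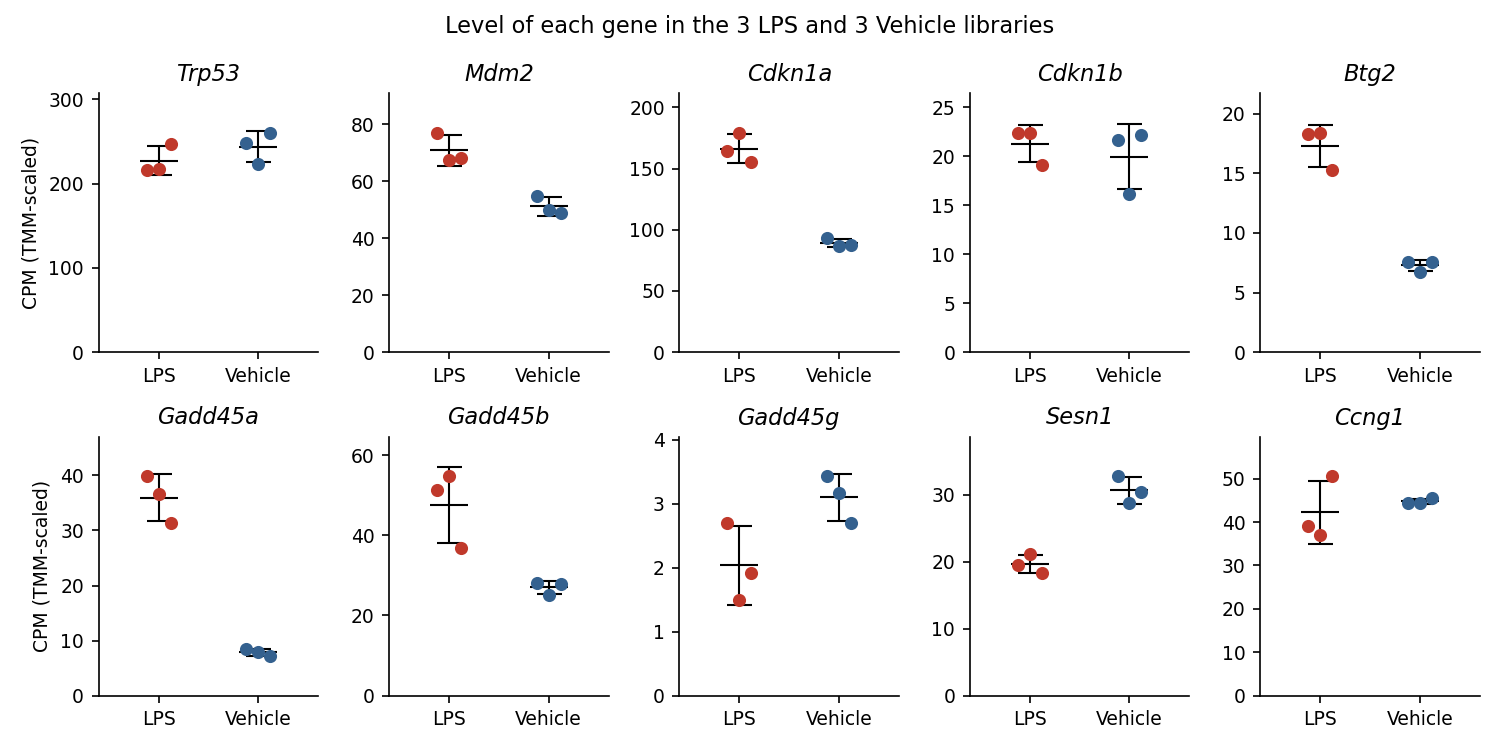
Level of each of the 10 genes in CPM, scaled by the trimmed mean of M-values (TMM), on linear axes that start at 0. Points are libraries, 3 LPS in red and 3 Vehicle in blue, with the mean and SD in black. The LPS points of Gadd45a, Btg2, Cdkn1a, Gadd45b and Mdm2 lie above all Vehicle points, and those of Sesn1 below.

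Trp53 (ENSMUSG00000059552, chr11:69580359-69591873, plus strand) itself did not pass the test. It was measured at 216, 218 and 247 CPM in LPS 1, 2 and 3, against 248, 223 and 260 CPM in Vehicle 1, 2 and 3. The ranges overlapped, and the log2 fold change was -0.10 ± 0.10 (edgeR adjusted p = 0.482). The mouse genome holds a processed pseudogene, Trp53-ps, to which reads of Trp53 could be assigned. It was listed at 94, 221 and 207 estimated counts in LPS libraries, against 289, 217 and 151 in Vehicle libraries, where Trp53 had at least 10800 in every library.

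The promoter window of Trp53 is shown because a match to the NF-kB consensus (kappaB motif) lies at its annotated start. It spans chr11:69580109-69580408 on the plus strand of GRCm38.p6, from 250 bases before to 50 bases after the start in RefSeq. Capitals mark the kappaB match, from base -5 to base 5, and the E-box CACGTG, from base 11 to base 16, with the first transcribed base counted as 1.

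Trp53: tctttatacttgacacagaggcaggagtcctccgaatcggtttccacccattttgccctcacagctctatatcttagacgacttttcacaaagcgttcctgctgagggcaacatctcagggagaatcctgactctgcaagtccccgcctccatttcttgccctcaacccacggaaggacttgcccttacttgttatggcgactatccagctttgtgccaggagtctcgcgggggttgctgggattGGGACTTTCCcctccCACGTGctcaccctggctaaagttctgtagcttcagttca

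Of all 32851 promoter windows, 8.46% held a kappaB match and 7.15% an E-box. Trp53 was the only one of the 10 genes with a kappaB match in its window, near the share of all genes with a window (9.55%). Its RNA level did not pass the test. A match in a window is a description of its letters and no evidence of binding.

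Mdm2 (ENSMUSG00000020184, chr10:117688875-117710758, minus strand), which encodes the ubiquitin ligase that targets p53, rose. Its level was 77.0, 67.5 and 68.0 CPM in LPS libraries, against 55.0, 49.9 and 48.8 CPM in Vehicle libraries. The groups did not overlap, and LPS 1 was the highest. The log2 fold change of 0.47 ± 0.10 (edgeR adjusted p = 0.0122) is the smallest among the called genes of the 10, a 1.38-fold rise. It lost its call without LPS 1 (0.39, adjusted p = 0.0508), without Vehicle 2 (0.44, adjusted p = 0.0610) or without Vehicle 3 (0.43, adjusted p = 0.0564), and kept its direction in each case.

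Cdkn1a (ENSMUSG00000023067, chr17:29090976-29100727, plus strand) encodes p21, the cyclin-dependent kinase inhibitor through which p53 arrests the cell cycle. It rose to 164, 179 and 156 CPM in LPS libraries, against 93.0, 86.4 and 87.9 CPM in Vehicle libraries. Every LPS library lay above every Vehicle library. The mean was 166 ± 11.9 CPM with LPS and 89.1 ± 3.46 CPM with Vehicle (SD, n = 3 each), which gives 0.90 ± 0.09 on the log2 scale (edgeR adjusted p = 0.000307). A gene model on the opposite strand, AC167363.2, was listed at no more than 23 estimated counts in any library.

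RefSeq gives Cdkn1a a pair of starts that lie 2790 bases apart on chromosome 17. The window of the upstream start, chr17:29090729-29091028 on the plus strand of GRCm38.p6, is shown because it holds a 20-base match to the p53 site. That site is a pair of 10-base motifs with no spacer, searched with at most 1 base off the consensus. It lies at bases -51 to -32, in capitals.

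Cdkn1a: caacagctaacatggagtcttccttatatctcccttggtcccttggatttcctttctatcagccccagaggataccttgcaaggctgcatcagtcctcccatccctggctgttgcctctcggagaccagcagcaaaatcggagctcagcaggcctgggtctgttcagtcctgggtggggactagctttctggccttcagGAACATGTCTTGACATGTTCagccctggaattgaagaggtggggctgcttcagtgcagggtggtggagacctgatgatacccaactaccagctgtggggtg

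Among all 32851 windows only 0.0883% held such a site. Among the 10 genes Cdkn1a and Ccng1 held it. A pair of exact 10-base motifs with a spacer of up to 13 bases was found only in Cdkn1a among the 10, and in 0.0740% of all genes with a window. The 10-base motif alone was found in 6 of the 10 genes (Trp53, Mdm2, Cdkn1a, Gadd45a, Sesn1 and Ccng1), and in 9.55% of the 27025 genes with a window. The window at the downstream start of Cdkn1a held no p53 motif, kappaB, AP-1 (TGANTCA), CRE (TGACGTCA), E-box or TATAAA match. No window of the 10 genes held an AP-1 match, beside 7.81% of all windows. Their 12 windows are too few to tell 0 from that share. Only the windows were searched, from 250 bases before to 50 bases after each start. A p53 site elsewhere in any of these genes would be missed.

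Ccng1 (ENSMUSG00000020326, chr11:40748552-40755311, minus strand), which encodes cyclin G1 and is a long-known p53 target, did not pass the test, and its window holds the same kind of site. Its level was 39.1, 37.0 and 50.5 CPM in LPS libraries, against 44.3, 44.4 and 45.5 CPM in Vehicle libraries. The Vehicle libraries lay within the range of the LPS libraries, of which LPS 3 stood highest. Its log2 fold change of -0.09 ± 0.13 (edgeR adjusted p = 0.689) became 0.00 without LPS 2. The window, chr11:40755237-40755536 on the minus strand of GRCm38.p6, carries the 20-base site at bases -195 to -176, in capitals.

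Ccng1: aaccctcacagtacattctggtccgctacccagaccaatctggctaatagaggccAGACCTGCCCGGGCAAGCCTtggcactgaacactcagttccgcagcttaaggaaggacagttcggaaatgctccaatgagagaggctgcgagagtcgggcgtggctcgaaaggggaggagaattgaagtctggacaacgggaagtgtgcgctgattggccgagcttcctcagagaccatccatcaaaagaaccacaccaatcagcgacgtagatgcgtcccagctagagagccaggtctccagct

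**Figure D2:**
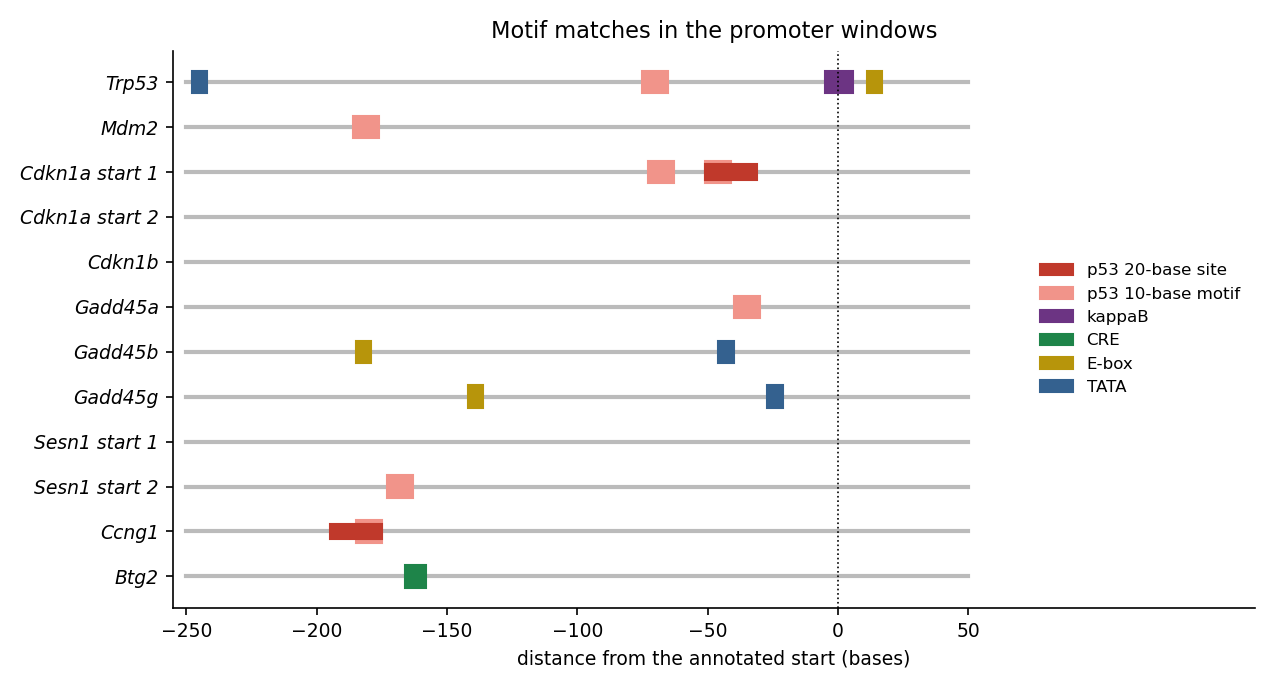
Positions of motif matches on either strand in the 12 RefSeq promoter windows of the 10 genes, with the distance in bases from the annotated start on the x axis. Boxes are matches to the p53 10-base motif, the 20-base p53 site with at most 1 base off, kappaB, CRE, E-box and TATAAA. The 20-base site appears at the upstream start of Cdkn1a and in Ccng1, the kappaB match at the start of Trp53 and the CRE in Btg2.

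Cdkn1b (ENSMUSG00000003031, chr6:134920401-134925513, plus strand) encodes p27, a cyclin-dependent kinase inhibitor whose protein level is set largely by its breakdown. It was measured at 22.4, 22.3 and 19.1 CPM in LPS libraries, against 21.6, 16.1 and 22.2 CPM in Vehicle libraries. The ranges overlapped, with Vehicle 2 lowest. The estimate of 0.09 ± 0.16 on the log2 scale (edgeR adjusted p = 0.723) took the other sign, -0.04, without Vehicle 2.

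Within each library, the count of Cdkn1a was 7.33, 8.02 and 8.15 times that of Cdkn1b with LPS, against 4.30, 5.36 and 3.97 times with Vehicle. These ratios do not depend on how libraries are scaled, and those of the groups did not overlap. The mean log2 ratio differed by 0.80, LPS minus Vehicle. The exact permutation test, two-sided, gave p = 0.1, the smallest that 3 libraries against 3 allow, and the same value when adjusted over the 3 ratios tested.

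Btg2 (ENSMUSG00000020423, chr1:134075170-134079120, minus strand), a p53 target whose product restrains proliferation and promotes the shortening of poly(A) tails, rose 2.38-fold. Its level was 18.3, 18.4 and 15.3 CPM in LPS libraries, against 7.54, 6.76 and 7.52 CPM in Vehicle libraries. Every LPS library lay far above every Vehicle library, and on the log2 scale the change was 1.25 ± 0.15 (edgeR adjusted p = 0.000780). The window, chr1:134079106-134079405 on the minus strand of GRCm38.p6, is shown because it alone among those of the 10 genes holds a cAMP response element (CRE), TGACGTCA, at bases -166 to -159, in capitals. Of all windows 1.79% held it.

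Btg2: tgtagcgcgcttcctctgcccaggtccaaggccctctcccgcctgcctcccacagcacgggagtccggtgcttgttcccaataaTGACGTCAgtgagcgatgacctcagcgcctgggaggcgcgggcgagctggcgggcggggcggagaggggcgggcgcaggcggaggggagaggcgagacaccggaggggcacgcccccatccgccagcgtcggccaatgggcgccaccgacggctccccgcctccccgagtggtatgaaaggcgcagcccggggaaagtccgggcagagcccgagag

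The 3 Gadd45 genes encode small acidic proteins that bind the stress kinase kinase Map3k4, the replication factor Pcna and the mitotic kinase Cdk1. Gadd45a is the classical p53 target among them, and Gadd45b is best known as a target of NF-kB and TGF-beta. With LPS they did not move alike. Gadd45a and Gadd45b rose, and Gadd45g did not pass the test.

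Gadd45a (ENSMUSG00000036390, chr6:67035096-67037457, minus strand) had the largest change of the 10 genes. It was at 39.8, 36.6 and 31.4 CPM in LPS libraries, against 8.47, 8.01 and 7.20 CPM in Vehicle libraries. The groups lay far apart, with a mean of 35.9 ± 4.24 CPM with LPS and 7.89 ± 0.64 CPM with Vehicle (SD, n = 3 each). The log2 fold change of 2.18 ± 0.15 (edgeR adjusted p = 4.22e-05) is a 4.54-fold rise, and 97.1% of the genes tested had a change of that size or smaller. A non-coding gene on the opposite strand, E230016M11Rik, overlaps it and was listed at 5 to 16 estimated counts in LPS libraries and 19 to 54 in Vehicle libraries, where Gadd45a had 1531 to 1988 and 341 to 512. Without a stated stranded protocol, reads of that pair cannot be told apart. The window of Gadd45a, chr6:67037358-67037657 on the minus strand of GRCm38.p6, is shown as that of the largest rise, with a 10-base p53 motif at bases -40 to -31 in capitals.

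Gadd45a: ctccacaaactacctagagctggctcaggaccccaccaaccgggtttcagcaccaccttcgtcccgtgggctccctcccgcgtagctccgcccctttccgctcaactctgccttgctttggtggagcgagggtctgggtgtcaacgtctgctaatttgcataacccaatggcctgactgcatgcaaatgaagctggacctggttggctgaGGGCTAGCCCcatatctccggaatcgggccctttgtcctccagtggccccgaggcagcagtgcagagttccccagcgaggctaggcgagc

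Gadd45b (ENSMUSG00000015312, chr10:80930073-80932204, plus strand) rose 1.76-fold. Its level was 51.4, 54.7 and 36.8 CPM in LPS libraries, against 28.2, 25.2 and 27.8 CPM in Vehicle libraries. LPS 3 was the lowest LPS library and still lay above all Vehicle libraries. The log2 fold change was 0.81 ± 0.16 (edgeR adjusted p = 0.00746), and 0.96 when LPS 3 was left out. The window of Gadd45b held TATAAA at bases -46 to -41, found in 13.6% of all windows, and an E-box.

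Gadd45g (ENSMUSG00000021453, chr13:51846678-51848468, plus strand) had the lowest CPM of the 10 genes, at 2.70, 1.497 and 1.91 CPM in LPS libraries, against 3.42, 3.16 and 2.70 CPM in Vehicle libraries. The highest LPS and the lowest Vehicle library were equal to 3 digits. These values rest on 79 to 135 estimated counts with LPS and 128 to 207 with Vehicle. Its estimate was -0.62 ± 0.29 on the log2 scale (edgeR adjusted p = 0.164), and it stayed negative in all 16 alternative settings.

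Gadd45b had 1.29, 1.49 and 1.17 times the count of Gadd45a in LPS libraries, against 3.33, 3.14 and 3.86 times in Vehicle libraries. Gadd45b had the higher count in every library, and the ratios of the groups did not overlap. The mean log2 ratio differed by -1.39, LPS minus Vehicle (exact permutation test, two-sided, p = 0.1, the smallest possible with these libraries).

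Sesn1 (ENSMUSG00000038332, chr10:41809935-41908424, plus strand), which encodes sestrin 1, a p53 target that restrains mTORC1 signalling, was the only called fall among the 10. Its level was 19.5, 21.2 and 18.4 CPM in LPS libraries, against 32.7, 28.8 and 30.4 CPM in Vehicle libraries. The groups did not overlap and each was tight. The log2 fold change was -0.64 ± 0.12 (edgeR adjusted p = 0.00605), and it ranged from -0.73 to -0.59 over the alternatives, with the call kept in each. Its relative Sesn2, which answers to p53 and to the integrated stress response, changed the other way, at 83.9, 86.9 and 88.9 CPM in LPS libraries, against 46.3, 42.1 and 44.4 CPM in Vehicle libraries (log2 fold change 0.97 ± 0.09, edgeR adjusted p = 0.000219). Sesn3, the remaining sestrin gene, was at no more than 18 estimated counts in any library.

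**Figure D3:**
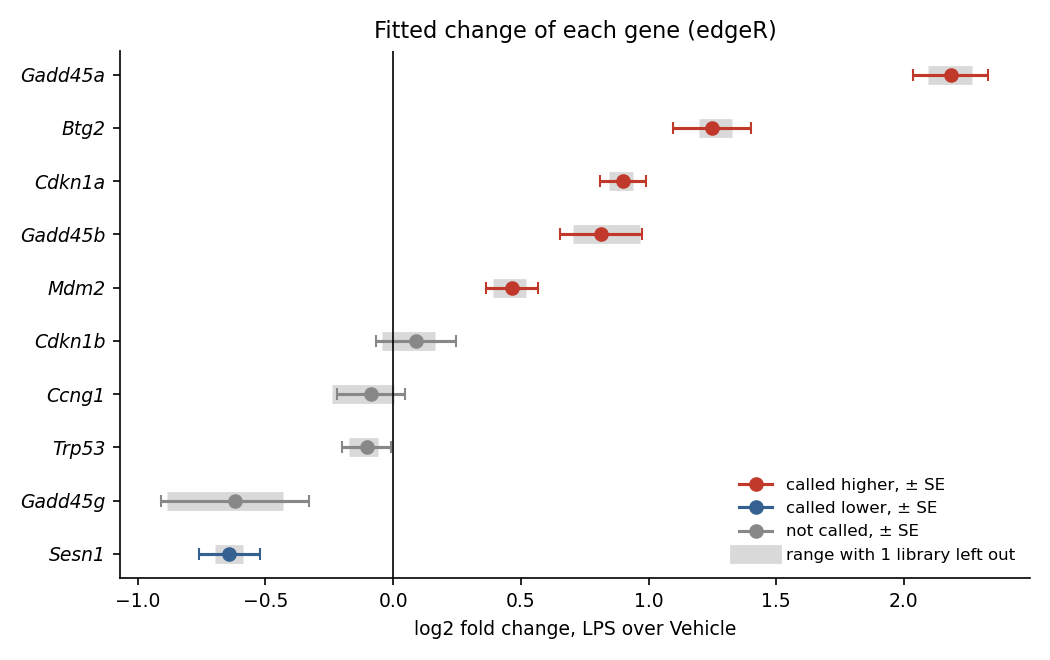
Fitted log2 fold change, LPS over Vehicle, of each of the 10 genes with its SE (edgeR, 3 libraries per group), ordered by size. Grey bars span the values with 1 library left out in turn. The rises run from 0.47 for Mdm2 to 2.18 for Gadd45a, and Sesn1 is the called fall at -0.64, while the grey bars of Cdkn1b and Ccng1 reach 0 or beyond.

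The libraries of the groups did not overlap in 7 of the 10 genes, the 6 called genes and Gadd45g. In all genes tested this share was 40.8%. Gadd45g is counted among the 7 by a margin that vanishes on rounding.

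Levels were compared between genes as CPM per kilobase of the longest annotated transcript. With LPS the order was Cdkn1a (79.9 ± 5.72), Trp53 (69.3 ± 5.27), Gadd45b (37.1 ± 7.42), Gadd45a (29.4 ± 3.46), Mdm2 (22.5 ± 1.69), Ccng1 (12.02 ± 2.07), Btg2 (6.31 ± 0.64), Sesn1 (5.16 ± 0.37), Cdkn1b (4.67 ± 0.41) and Gadd45g (1.90 ± 0.57), as mean CPM per kilobase ± SD (n = 3). The libraries of 3 pairs of neighbours in that order overlapped, those of Cdkn1a and Trp53, Gadd45b and Gadd45a, and Sesn1 and Cdkn1b. With Vehicle the order was Trp53 (74.5 ± 5.74), Cdkn1a (42.8 ± 1.66), Gadd45b (21.1 ± 1.29), Mdm2 (16.3 ± 1.05), Ccng1 (12.7 ± 0.19), Sesn1 (8.05 ± 0.52), Gadd45a (6.45 ± 0.52), Cdkn1b (4.39 ± 0.74), Gadd45g (2.89 ± 0.34) and Btg2 (2.65 ± 0.16), on the same scale (SD, n = 3). Among these neighbours only Gadd45g and Btg2 overlapped. The lengths are those of GENCODE M21, and shorter transcripts in use would raise a gene's level per kilobase.

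**Figure D4:**
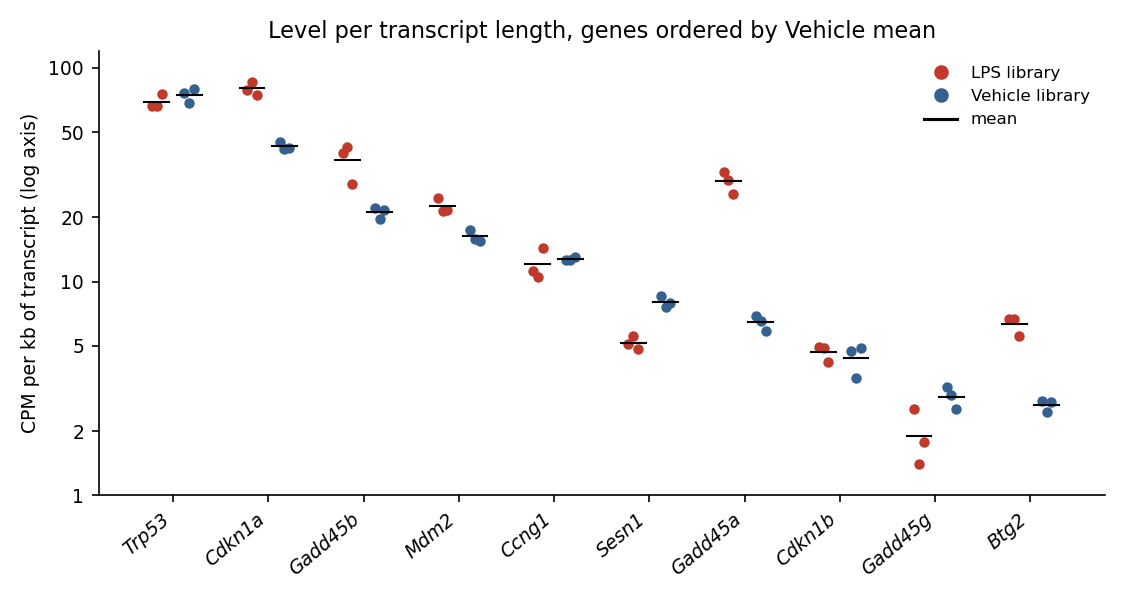
Level per transcript length of the 10 genes, in CPM per kilobase on a log axis, ordered by the Vehicle mean. Points are libraries (LPS red, Vehicle blue) and black lines are group means. Cdkn1a and Trp53 lead in both groups, at 79.9 and 69.3 with LPS and 42.8 and 74.5 with Vehicle, and Gadd45a shows the widest gap between the groups.

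The ratio of Mdm2 to Trp53 was 0.36, 0.31 and 0.28 in LPS libraries, against 0.22, 0.22 and 0.19 in Vehicle libraries, as counts not corrected for length. The ranges did not overlap, and the mean log2 ratio differed by 0.57, LPS minus Vehicle (exact permutation test, two-sided, p = 0.1, the smallest possible here).

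Among 36 other p53 target genes, 33 passed the filter, of which 9 rose, 6 fell and 18 did not pass the test, and the list median was 0.18 on the log2 scale. The share called was 45.5%, beside 23.6% of all genes. Plk2, a polo-like kinase, rose to 1005, 1187 and 766 CPM in LPS libraries, against 249, 238 and 231 CPM in Vehicle libraries, the largest change in the list at 2.04 ± 0.15 (edgeR adjusted p = 7.51e-05). Its relative Plk3 had 1.69 ± 0.16, and the long non-coding RNA gene Trp53cor1, which lies near Cdkn1a and is also called lincRNA-p21, had 1.36 ± 0.29, with means of 3.91 ± 0.78 CPM with LPS and 1.502 ± 0.28 CPM with Vehicle (SD, n = 3 each). The death receptor gene Fas rose with 1.54 ± 0.37 and lost its call without LPS 2, Vehicle 1 or Vehicle 2 (edgeR adjusted p up to 0.0761). Gls2, a mitochondrial glutaminase, was the largest fall at -1.34 ± 0.35, and lost its call without LPS 2, LPS 3, Vehicle 2 or Vehicle 3 (adjusted p up to 0.0839). Without Vehicle 3 the list held 3 falls, and with 1 library left out in turn its rises numbered 6 to 12.

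Of 3 apoptosis genes in that list, chosen after their values were seen, Bbc3 passed edgeR's test and Bax and Pmaip1 did not. Bbc3, which encodes PUMA, rose to 32.9, 29.8 and 20.4 CPM in LPS libraries, against 10.1, 11.9 and 11.8 CPM in Vehicle libraries (log2 fold change 1.31 ± 0.20, edgeR adjusted p = 0.00216). Bax had -0.16 ± 0.12 and Pmaip1, which encodes NOXA, -1.01 ± 0.44, and neither passed the test (edgeR adjusted p = 0.348 and 0.163), though DESeq2 called Pmaip1. Pmaip1 varied widely inside each group, at 41.9, 39.4 and 15.7 CPM with LPS, against 76.4, 39.4 and 79.9 CPM with Vehicle.

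Of 21 genes for regulators and relatives of p53, 19 passed the filter, and 2 rose, 2 fell and 15 did not pass the test. The share called was 21.1%, beside 23.6% of all genes, and the median was -0.04 on the log2 scale. Chek1, the checkpoint kinase activated by stalled replication, fell to 16.2, 14.9 and 18.7 CPM in LPS libraries, against 32.5, 40.2 and 45.2 CPM in Vehicle libraries (log2 fold change -1.24 ± 0.16). Sirt1, a deacetylase that acts on p53, had -0.85 ± 0.14. Cdkn2a, the locus of p16 and of the Mdm2 inhibitor p19Arf, rose with 0.78 ± 0.10, and these counts do not separate its products. Trim24, a ubiquitin ligase, had 0.45 ± 0.13 and lost its call without any 1 of the 6 libraries, among other settings (edgeR adjusted p up to 0.127). That leaves 1 rise, except without LPS 3, where Rchy1 of the same list was called higher (edgeR adjusted p = 0.0178) and the rises numbered 2. Trp63 was at 0 in every library and Trp73 in 5 of 6, where 3 steps of the counts, 11.5 to 11.7 counts per library, is the limit that a count of 0 allows. Atm, Atr and Prkdc, kinases with long transcripts, did not pass the test, and LPS 1 was the lowest library for each, at 18.9, 13.6 and 20.6 CPM. Atm was called lower by DESeq2 and without LPS 3 (adjusted p down to 0.0123), and Prkdc without LPS 3 (edgeR adjusted p = 0.0185). Without LPS 3, 4 members of the list fell.

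Of 10 genes for other cyclin-dependent kinase inhibitors and the breakdown of p27, all passed the filter. Of these 2 rose and 5 fell (70% called, beside 23.6% of all genes), and the median was -0.43 on the log2 scale. Cdkn2b, which encodes p15, rose to 19.5, 16.6 and 13.2 CPM in LPS libraries, against 7.72, 8.89 and 6.74 CPM in Vehicle libraries (1.08 ± 0.19), and Cdkn2a rose as given above. Cdkn2c, which encodes p18, fell to 10.4, 6.90 and 9.99 CPM in LPS libraries, against 25.5, 25.2 and 30.4 CPM in Vehicle libraries (-1.57 ± 0.18). Both belong to the INK4 family of inhibitors. Skp2 and Cks1b, which bring p27 to its ubiquitin ligase, fell with -0.80 ± 0.10 and -0.65 ± 0.11, while Cdkn1b RNA did not pass the test. Skp1 and Cul1, the other called falls, chosen after their values were seen, are subunits of the same ligase, with -0.54 ± 0.12 and -0.33 ± 0.09, and both lost their call in some fits with 1 library left out (edgeR adjusted p up to 0.0673 and 0.116). Without Vehicle 1 or Vehicle 2 the list held 3 falls.

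Of 11 relatives of the 10 genes, 9 passed the filter, 3 rose and none fell (33.3% called, median 0.13 on the log2 scale). Besides Sesn2, which is also in the list of other p53 targets, these were Btg1 and Btg3. Btg1 had 239, 236 and 170 CPM in LPS libraries, against 83.0, 76.5 and 83.2 CPM in Vehicle libraries (1.41 ± 0.14), and Btg3 had 0.90 ± 0.12. With Btg2, 3 genes of the BTG family thus rose, while Tob1 and Tob2 of the same family had -0.30 ± 0.12 and 0.13 ± 0.09 and did not pass the test. Among 8 genes for partners of the Gadd45 proteins, a list that also takes in kinases downstream of Map3k4, 1 rose and 3 fell. The share called was 50%, with a median of -0.42 on the log2 scale. Of all genes tested 23.6% were called. Map2k6, a kinase that activates p38, rose with 1.43 ± 0.16, and its upstream kinase Map3k4 had 0.14 ± 0.09 (edgeR adjusted p = 0.313). Pcna, the sliding clamp of DNA replication, fell to 313, 327 and 305 CPM in LPS libraries, against 651, 614 and 600 CPM in Vehicle libraries (-0.98 ± 0.08). Cdk1 and its cyclin gene Ccnb1 had -0.93 ± 0.14 and -0.78 ± 0.09.

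**Figure D5:**
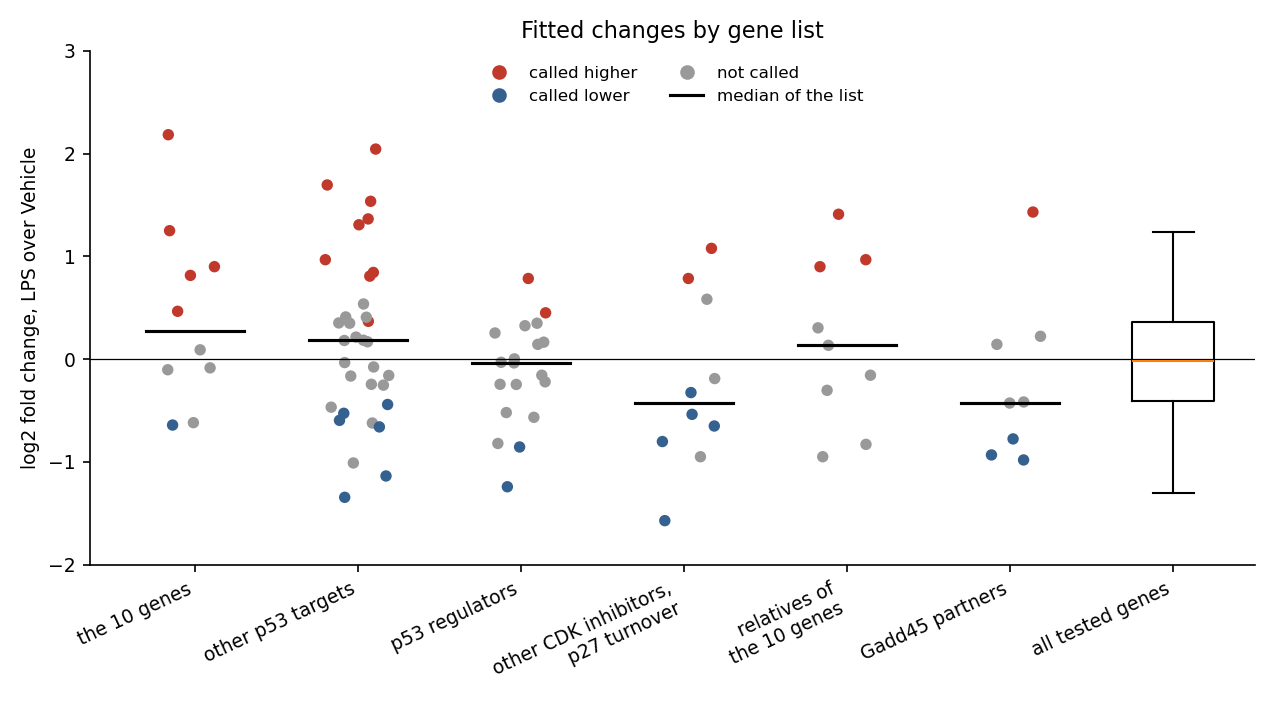
Fitted log2 fold change, LPS over Vehicle, of the tested genes of each list (points, coloured by call) with the list median as a black line, beside a box plot of all 16371 genes tested (box, quartiles and median; whiskers, percentiles 5 and 95). A gene in more than 1 list is drawn in each. The list medians run from -0.43 to 0.28, and called genes go both ways in each list but the relatives of the 10 genes, where 3 rose and none fell.

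By the distance between their profiles of log2 CPM over the 6 libraries, each centred on its own mean, the genes most like Gadd45a among 9685 compared were St3gal6, a sialyltransferase, Ddit3, the stress response factor also called CHOP, and Rab11fip1, which acts in recycling of membrane vesicles. Their root-mean-square distances were 0.11 each on the log2 scale. The genes most like Sesn1 were Aurkb, a mitotic kinase, Slc9a5, a sodium-proton exchanger, and Trmt61a, a tRNA methyltransferase, at 0.04, 0.04 and 0.05. With 3 libraries in each of the 2 groups such a profile holds little beyond the size of the change.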

How the data were processed

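Total RNA of BV2 cells was enriched for poly(A) transcripts with oligo(dT) beads, made into NEBNext Ultra libraries and read on a NovaSeq instrument, per the labels' protocols. Bowtie2 2.2.8, HISAT2, StringTie 1.3.1 and DESeq2 are named in the submitters' processing notes, with no role or order. Which genome build and gene models were used is not given in the sources used here. The authors deposited expected counts, an estimate for every gene in every library. All were whole, and rounding changed nothing. Small values clustered at multiples of 3.83 to 3.90, so a value is not a number of reads, and the limit that a count of 0 allows was set at 3 steps. It covers counting error only.

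Gene symbols and lengths came from GENCODE M21 (GRCm38), in which 55141 of the 55401 identifiers were found, and promoter sequences from RefSeq on GRCm38.p6, which held windows for all 10 genes. The filter was filterByExpr (minimum count 10, minimum total 15). Counts were scaled by TMM and tested with edgeR 4.0.16 in R 4.3.3 by the robust quasi-likelihood F-test, two-sided, LPS against Vehicle. The SE is the size of the log2 fold change over the square root of F. For log2 CPM a prior count of 2 was added. The procedure was also run on simulated data with far fewer changed genes than were called here, and that run is not used as support for the calls. Alternatives were the size factors of DESeq2 1.42.0, upper quartile and total count scaling, no filter and a stricter filter (1 CPM in 3 libraries), the DESeq2 Wald test, limma 3.58.1 voom, the older quasi-likelihood method, a replicate block, division by the spacing, and each library left out. Exact permutation tests used scipy 1.17.1, and figures matplotlib 3.10.9 in Python 3.11.15.

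The 10 genes, the 5 other lists and the tests were chosen with earlier results of these data known. The 5 other lists hold 78 different genes, of which 8 are in more than 1 list, Sesn2 and Cdkn2a among them. Such a gene is counted in each of its lists. Named are all 10 genes, from each list up to 5 called genes by size of change (both directions where both occur), and the 3 genes of at least 5 CPM nearest in profile to the largest rise and fall. Bbc3, Bax, Pmaip1, Skp1, Cul1, Atm, Atr, Prkdc, Rchy1, Trp63, Trp73, Sesn3, Tob1, Tob2, Map3k4 and the marker genes were named after their values were seen.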

Additional observations from a re-analysis of the deposited data

How the results depend on the processing

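Of 160 recomputed log2 fold changes of the 10 genes (16 alternatives each), 155 kept their direction and their side of the threshold. Mdm2 lost its call 3 times, all among the fits with 1 library left out, in which its value ran from 0.39 to 0.52 (edgeR adjusted p up to 0.0610). Cdkn1b and Ccng1, not called in any setting, changed sign. Cdkn1b ran from -0.0433 (without Vehicle 2) to 0.16, and Ccng1 from -0.24 to 0.00319 (without LPS 2). With 1 library left out 4 or 5 of the 10 genes were called higher and 1 lower, and with every other alternative 5 and 1. Over all genes, 3864 were called, and 2344 to 4535 with 1 library left out, the lowest without Vehicle 2. Of these 1291 to 2450 were higher, the lowest again without Vehicle 2, and 1053 to 2085 lower, with 1053 without Vehicle 2, 1150 without Vehicle 1 and 1153 without LPS 2. The calls higher among p53 regulators numbered 1 with upper quartile scaling, with total counts only, with no filter and with the replicate block, and 1 or 2 with 1 library left out. With 1 library left out the calls lower numbered 2 to 4 among p53 regulators, 3 to 5 among other p53 targets and 3 to 5 among the other cyclin-dependent kinase inhibitors and genes of p27 breakdown. The highest counts over all genes, 4535 called, 2450 higher and 2085 lower, came without LPS 3, as did the 4 calls lower among p53 regulators. Each fit with 1 library left out also had fewer libraries. The cause of these shifts was not tested. Total counts in place of TMM moved the median log2 fold change of all genes to -0.10 and the share of higher calls to 42.2%, against 53.9% with TMM, and the 10 genes kept their calls. The 3 log2 ratios between genes kept their sign in all alternatives, with 1 library left out from -1.48 to -1.30 for Gadd45b over Gadd45a, 0.70 to 0.92 for Cdkn1a over Cdkn1b and 0.47 to 0.66 for Mdm2 over Trp53.

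The replicate numbers were shared by the groups but not stated to mark a pairing, and same-numbered libraries deviated together with correlations of only 0.07, 0.05 and 0.06 across genes. Every library correlated best with its own number, a hint from the data and not from the design. With the replicate block 3817 genes were called, 2033 higher and 1784 lower, and 5 of the 10 genes were called higher and 1 lower. The spacing of the low values limits what can be said of Gadd45g, Sesn3 and the p53 relatives.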

Other observations

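The 20-base p53 site, with at most 1 base off its consensus, was found in the promoter windows of 29 genes by symbol, of which 9 were tested. Cdkn1a was called higher, and Gtse1, a protein of the G2 phase that restrains p53, and Mthfd1, an enzyme of folate metabolism, were called lower with log2 fold changes of -0.66 ± 0.11 and -0.29 ± 0.07. The other 6 did not pass the test, Ccng1 and the ribosomal protein gene Rps27l among them. Cdkn1a and Ccng1 belong to the 10 genes, and Gtse1 and Rps27l to the list of other p53 targets above. The share called was 33.3%, beside 23.6% of all genes, and the median log2 fold change was -0.29. This search was added after the values of the 10 genes had been seen.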
